A study of Drosophila melanogaster with 6 samples.

Results

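The heat shock genes described here are 9 Drosophila melanogaster genes, namely the heat shock factor gene Hsf, the chaperone genes Hsp68 and Hsp83, and the small heat shock protein genes Hsp22, Hsp23, Hsp26, Hsp27, Hsp67Ba and Hsp67Bc. A probe set was taken for one of them where the platform annotation, with symbols brought up to date, gave that gene alone. By this rule 4 genes, Hsf, Hsp68, Hsp26 and Hsp27, had 1 probe set each, 4 of 18952 on the array, and all 4 passed the filter on low values. Hsp22 appeared only on probe sets shared with CG4456, which are given below without being assigned to either gene. Hsp23, Hsp67Ba, Hsp67Bc and Hsp83 had no probe set named for them in the annotation used here and were not analysed here.

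Transcript levels were measured on 1-colour arrays in whole stage 16 embryos of 3 genotypes, with 2 arrays each. The groups were grh overexpression (69B>grh), grh mutant (grhB37) and wild type (w1118). The study asked what the transcription factor Grainy head, encoded by grh, does to gene expression, and the design text sets both altered strains against wild type. The driver 69B acts mainly in the embryonic ectoderm, and no driver-only embryos are among the groups. Whether the 3 strains share a background is not stated either, so strain, driver and embryo collection cannot be told apart from grh itself. Nothing says that the replicates were separate collections, and the p-values then reflect only the spread between these arrays, which may be technical.

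Heat shock proteins are molecular chaperones. When proteins unfold, heat shock factor, the product of Hsf, forms trimers, binds heat shock elements and switches on chaperone genes of the Hsp70 family, such as Hsp68, and the small heat shock proteins, which hold unfolded proteins in a state from which Hsp70 can refold them. Some of these genes are also active without stress: in flies, Hsp26 and Hsp27 are transcribed in the ovary and Hsp27 responds to the moulting hormone ecdysone. The genes Hsp22, Hsp23, Hsp26, Hsp27, Hsp67Ba and Hsp67Bc lie together on chromosome arm 3L, Hsp68 lies on 3R and Hsf on 2R. Values below are the deposited log2 values of a probe set, which allow one gene to be compared between genotypes but not one gene's level with another's.

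The grh probe set read 12.27 and 12.38 in grh overexpression, 9.05 and 9.02 in grh mutant, and 7.36 and 7.45 in wild type. It was thus highest in grh overexpression and was also higher in the arrays labelled grh mutant than in wild type, by 1.63 on the log2 scale (limma adjusted p = 1.59e-10). The labels do not say what the allele does to the transcript, so the label of the mutant arrays is unchecked, and every direction below rests on it. The median difference between replicates over tested probe sets was 0.066, 0.059 and 0.070 log2 units for grh overexpression, grh mutant and wild type. With such a small spread, most rows passed the test: limma called 80.1% of 8632 rows in grh overexpression against wild type, 80.9% in grh mutant against wild type and 86.6% in grh overexpression against grh mutant. A called row that also differed at least 2-fold is therefore counted separately, and such rows made up 21.4%, 17.8% and 36.1% of the rows in the same order. Markers of several tissues were present, counted among those with a probe set named for them on the array. At a log2 value of at least 4 on both wild type arrays were all 7 muscle, all 6 glial and all 6 epidermal and cuticle markers. The same held for 6 of 9 neuronal, 4 of 6 hemocyte, 3 of 4 midgut and 0 of 4 germ cell markers.

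All 4 measured genes were lower in grh mutant than in wild type, whereas in grh overexpression Hsp26 was higher, Hsp68 and Hsp27 were lower and Hsf did not pass the test. In grh overexpression against wild type 1 of 4 was called higher and 2 lower, where 36% and 44.1% of all rows were called. These 3 changes were all at least 2-fold, which held for 13.1% (higher) and 8.27% (lower) of all rows. In grh mutant against wild type 4 of 4 were called lower and 0 higher, where 44.6% and 36.3% of all rows were called. Of these, 3 were lower at least 2-fold, against 7.06% of all rows lower and 10.8% higher by that rule. In grh overexpression against grh mutant 3 were higher and 1 was lower, where 42.9% and 43.7% of all rows were called. By the 2-fold rule 2 were higher and 0 lower, where 18.7% and 17.4% of all rows were called. Hsf lies on that limit, and 1 was left without grh overexpression replicate 2, without grh mutant replicate 1 or with each array centred on its median. Without wild type replicate 1, 2 of 4 were called higher in grh overexpression than in wild type. The median log2 fold change of the 4 genes was -0.59 in grh overexpression and -1.81 in grh mutant, both against wild type, beside -0.08 and -0.07 over all rows. Both comparisons use the same wild type arrays, so their directions are not independent of each other.

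Hsf, the regulator of the heat shock response, read 9.59 and 9.59 in grh overexpression, 8.54 and 8.63 in grh mutant, and 9.55 and 9.45 in wild type. The grh mutant arrays were the low ones, and the grh overexpression and wild type arrays lay close together. Hsf was 1.88-fold lower in grh mutant than in wild type (log2 fold change -0.91, SE 0.051, adjusted p = 1.70e-08). It was 2.01-fold higher in grh overexpression than in grh mutant (log2 fold change 1.0, SE 0.051, adjusted p = 3.09e-09). Between grh overexpression and wild type the fitted difference was 0.09 (95% interval -0.02 to 0.21, adjusted p = 0.114). Without wild type replicate 1 that difference was 0.14 and passed the threshold (adjusted p = 0.0436).

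Hsp68, a heat-inducible member of the Hsp70 family, read 5.10 and 5.37 in grh overexpression, 6.12 and 5.99 in grh mutant, and 8.67 and 8.67 in wild type. The order from high to low was wild type, then grh mutant, then grh overexpression. Hsp68 was 10.8-fold lower in grh overexpression than in wild type (log2 fold change -3.43, SE 0.088, adjusted p = 1.23e-11), which ranked 28 among the falls of all 8632 rows. It was 6.12-fold lower in grh mutant than in wild type (log2 fold change -2.61, SE 0.088, adjusted p = 2.67e-10), ranking 59 among the falls. The gene was thus low in both altered genotypes, and 1.76-fold lower in grh overexpression than in grh mutant (adjusted p = 3.03e-06).

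Hsp26, a small heat shock protein, read 12.70 and 12.59 in grh overexpression, 8.26 and 8.19 in grh mutant, and 10.40 and 10.28 in wild type. Wild type lay near the middle of the range. Hsp26 was 4.94-fold higher in grh overexpression than in wild type (log2 fold change 2.30, SE 0.053, adjusted p = 5.21e-12) and 4.33-fold lower in grh mutant than in wild type (log2 fold change -2.12, SE 0.053, adjusted p = 3.21e-11). Its difference between grh overexpression and grh mutant was 21.4-fold (log2 fold change 4.42, adjusted p = 2.17e-14), larger in size than that of 98.4% of all rows.

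Hsp27 is another small heat shock protein gene of the same cluster. It read 6.37 and 6.47 in grh overexpression, 6.18 and 6.20 in grh mutant, and 7.72 and 7.66 in wild type, so that wild type was the high group, unlike for Hsp26. Hsp27 was 2.42-fold lower in grh overexpression than in wild type (log2 fold change -1.27, SE 0.066, adjusted p = 5.76e-09). It was 2.83-fold lower in grh mutant than in wild type (log2 fold change -1.50, SE 0.066, adjusted p = 2.08e-09). The 2 altered genotypes were close to each other: grh overexpression was 0.23 log2 units above grh mutant (95% interval 0.08 to 0.37, adjusted p = 0.00634), and without grh overexpression replicate 2 this was 0.18 and no longer passed (adjusted p = 0.0606).

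**Figure D1:**
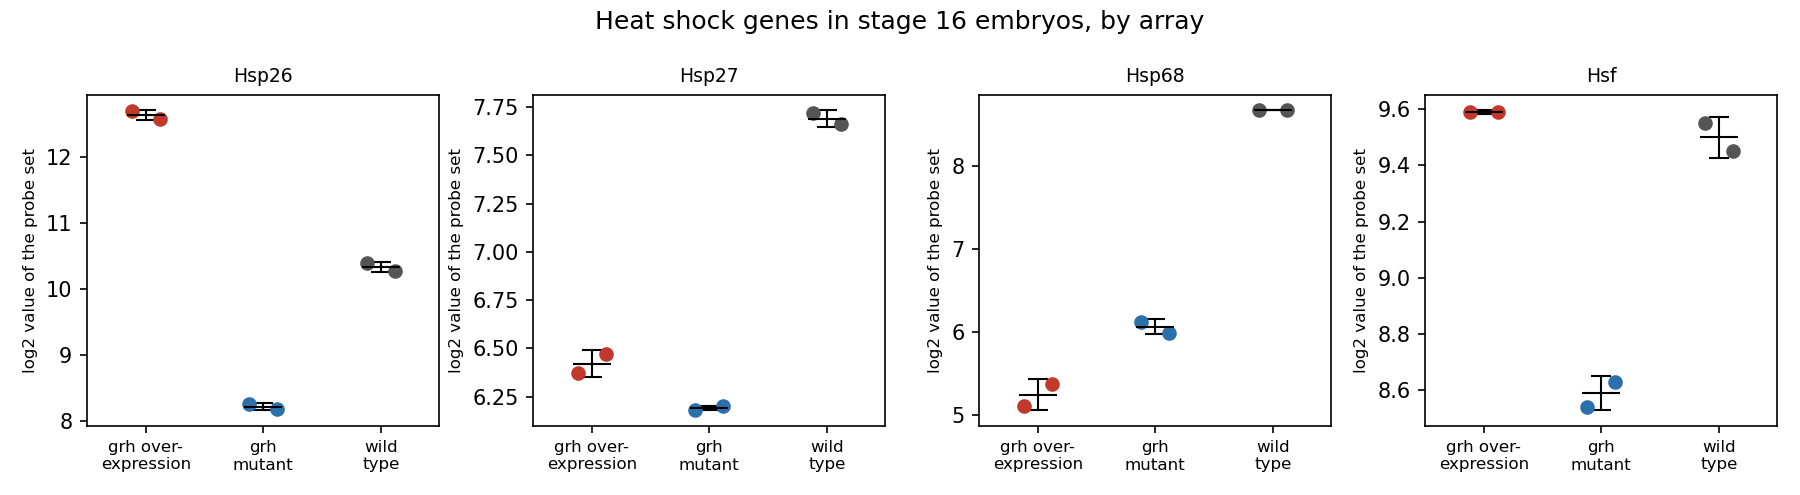
Log2 value of the probe set of Hsp26, Hsp27, Hsp68 and Hsf on each array, by genotype; coloured points are the 2 arrays, the long black dash is their mean and the whiskers are the SD, and each panel has its own axis. Hsp27 and Hsp68 are highest in wild type, Hsp26 averages 12.64 in grh overexpression and 8.22 in grh mutant, and Hsf is low in grh mutant only.

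The 4 genes therefore fell into unlike patterns over the 6 arrays. Hsp27 and Hsp68 were most alike in shape (Pearson r = 0.93) and Hsp26 and Hsf came next (r = 0.89), while Hsp26 and Hsp68 had r = -0.25. The root mean square difference of log2 values, each gene centred on its mean, also counts size and ordered the pairs otherwise. By it Hsp27 and Hsf were closest (0.56), before Hsp27 and Hsp68 (0.88), while Hsp26 and Hsf differed by 1.42 and Hsp26 and Hsp68 by 2.6. These values describe 6 arrays of 3 genotypes, which share their groups, and carry no test.

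The inducible Hsp70 genes are near-identical copies, so their probe sets list several genes and cannot be given to one, and probe sequences were not used here. Of 5 such probe sets, 4 were bright enough to be tested. The one listing Hsp70Aa and Hsp70Ab read 9.22 and 9.20 in grh overexpression, 9.24 and 9.41 in grh mutant, and 10.59 and 10.63 in wild type. It was 2.64-fold lower in grh overexpression than in wild type (adjusted p = 4.52e-10) and 2.43-fold lower in grh mutant than in wild type (adjusted p = 1.56e-09). Wild type was again the high group, as for Hsp68 and Hsp27. The probe set listing Hsp70Ba, Hsp70Bb, Hsp70Bbb and Hsp70Bc read 9.32 and 9.30 in grh overexpression, 9.08 and 9.13 in grh mutant, and 10.91 and 10.83 in wild type. It was 2.95-fold lower in grh overexpression than in wild type (adjusted p = 3.71e-11) and 3.40-fold lower in grh mutant than in wild type (adjusted p = 3.72e-11). The probe set listing only Hsp70Bb and Hsp70Bc was 3.84-fold lower in grh overexpression (adjusted p = 4.90e-10) and 5.93-fold lower in grh mutant (adjusted p = 1.06e-10), both against wild type.

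One Hsp70 probe set went the other way. It lists CG31343 beside Hsp70Bb and Hsp70Bc, and read 9.72 and 9.77 in grh overexpression, 10.33 and 10.36 in grh mutant, and 9.23 and 9.15 in wild type. It was 1.47-fold higher in grh overexpression (adjusted p = 3.76e-07) and 2.23-fold higher in grh mutant (adjusted p = 9.00e-10) than in wild type. Which of the 3 listed transcripts it read was not tested. The remaining probe set, which lists the 4 Hsp70B copies, stayed between 2.28 and 2.29 on all arrays, near the floor of the deposited values, 2.27.

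The 2 probe sets listing Hsp22 and CG4456 also disagreed with each other. In the reference annotation Hsp22 lies within the span of CG4456, another gene of the small heat shock protein cluster. The first read 7.72 and 7.69 in grh overexpression, 5.57 and 5.39 in grh mutant, and 7.73 and 7.76 in wild type, so that grh mutant was the low group. It was 4.81-fold lower in grh mutant than in wild type (log2 fold change -2.27, adjusted p = 1.74e-10), and grh overexpression differed from wild type by -0.04 (95% interval -0.20 to 0.11, adjusted p = 0.579). The second read 6.49 and 6.38 in grh overexpression, 5.66 and 5.68 in grh mutant, and 5.58 and 5.39 in wild type. Here grh overexpression was the high group, 1.93-fold above wild type (adjusted p = 6.83e-07), and grh mutant differed from wild type by 0.19 (adjusted p = 0.0557). That difference passed the threshold under 5 alternatives and without wild type replicate 1 was 0.28 (adjusted p = 0.0167).

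**Figure D2:**
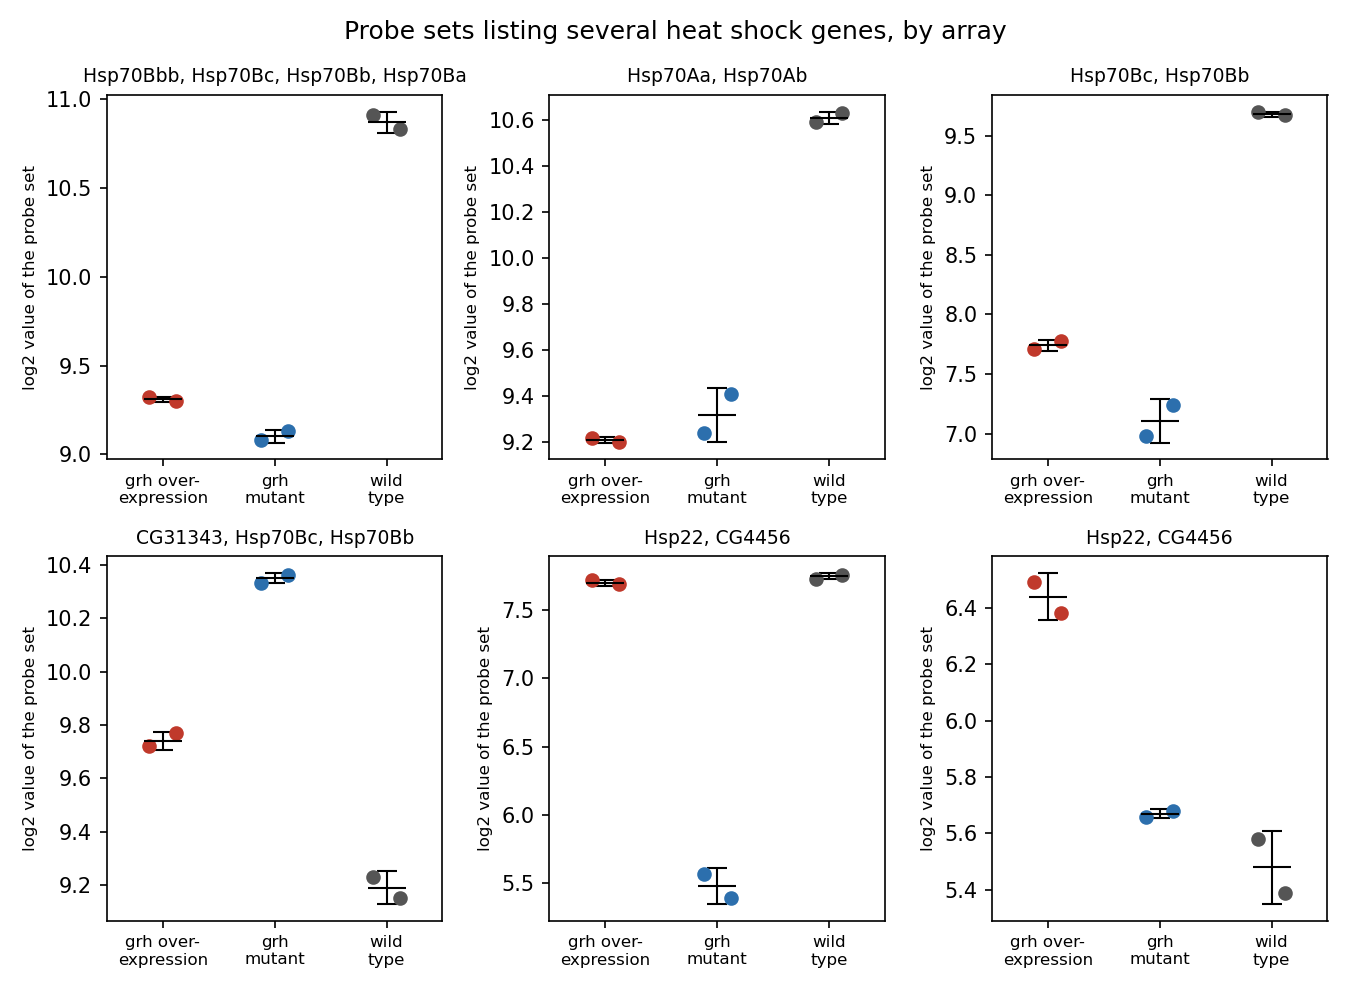
Log2 value on each array of the 6 tested probe sets that list several heat shock genes, named above each panel; coloured points are the 2 arrays of a genotype, the long black dash is their mean, the whiskers are the SD, and each panel has its own axis. The probe sets listing Hsp70 copies alone are highest in wild type, the one that also lists CG31343 is highest in grh mutant, and the 2 listing Hsp22 and CG4456 differ in their order.

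Genes flanking the small heat shock cluster did not share one direction. Among 23 other genes lying inside the cluster or among the 10 on either side, 13 were tested. Over all rows 36% were called higher and 44.1% lower in grh overexpression, and 36.3% and 44.6% in grh mutant. In grh overexpression against wild type 3 were called higher and 6 lower, with a median of -0.13, and in grh mutant against wild type 5 were higher and 4 lower, with a median of 0.00. By the at-least-2-fold rule, CG32040 was 3.06-fold lower in grh overexpression than in wild type. In grh mutant mRRF1 was 2.59-fold and eIF4E1, an mRNA cap-binding translation factor, 2.04-fold higher than in wild type. All 3 of these genes lie outside the outermost heat shock genes. Between Hsp67Bc and Hsp27 only Hsp26 was tested with a probe set of its own. The 2 probe sets listing Hsp22 and CG4456, which also lie there, are given above and are not in these counts.

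**Figure D3:**
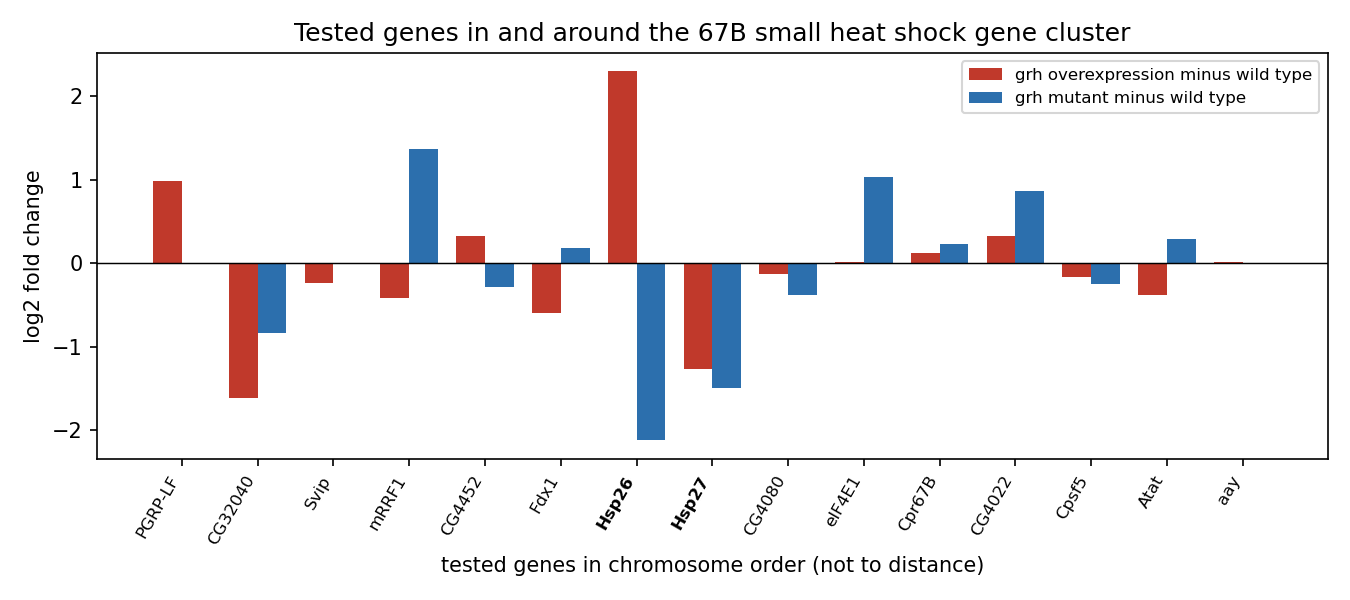
Log2 fold change (vertical axis) of the tested genes in and around the small heat shock gene cluster, in chromosome order and not to distance, for grh overexpression minus wild type (red) and grh mutant minus wild type (blue); Hsp26 and Hsp27 are in bold. Hsp26, at 2.30 and -2.12, and Hsp27, at -1.27 and -1.50, stand beside flanking genes of both directions. The probe sets listing Hsp22 and CG4456 are not drawn.

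Partners of the heat-inducible chaperones were measured with them. DnaJ-1, the Hsp40 that delivers clients to Hsp70, averaged 9.38 in grh overexpression, 9.74 in grh mutant and 10.60 in wild type. It was 2.32-fold lower in grh overexpression (adjusted p = 2.15e-10) and 1.80-fold lower in grh mutant (adjusted p = 7.30e-09) than in wild type. The BAG-domain co-chaperone gene stv averaged 7.85 in grh overexpression, 9.65 in grh mutant and 9.34 in wild type, being 2.82-fold lower in grh overexpression (adjusted p = 4.25e-10) and 1.23-fold higher in grh mutant (adjusted p = 0.000446) than in wild type. Hsp110, which helps Hsp70 exchange its nucleotide and is counted in both Hsp70 lists, differed from wild type by 0.13 in grh overexpression and by -0.02 in grh mutant. Together 1 of 3 was higher and 2 lower in grh overexpression (median -1.22), and 1 was higher and 1 lower in grh mutant, with a median of -0.02, both against wild type. The higher call in grh overexpression, Hsp110, was lost on leaving out either grh overexpression replicate or either wild type replicate. Of all rows, 36% were called higher and 44.1% lower in grh overexpression, and 36.3% and 44.6% in grh mutant.

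Among constitutive Hsp70 genes and their partners, 3 of 5 were higher and 2 lower in grh overexpression (median 0.12), and 2 were higher and 2 lower in grh mutant, with a median of -0.02, both against wild type. Hsc70-4, the main constitutive cytosolic Hsp70, averaged 13.42 in grh overexpression, 12.85 in grh mutant and 13.30 in wild type, a difference from wild type of 0.12 in grh overexpression (adjusted p = 0.00569) and -0.46 in grh mutant (adjusted p = 1.46e-07). STUB1, a ubiquitin ligase that works with Hsp70, rose by 0.43 in grh overexpression and fell by 0.41 in grh mutant. Hsc70-1 averaged 3.31 in grh overexpression, under the minimum of 4, against 5.30 in grh mutant and 4.77 in wild type. Without grh overexpression replicate 2, 1 of 5 was called higher in grh overexpression against wild type. The shares of all rows called higher and lower were 36% and 44.1% in grh overexpression, and 36.3% and 44.6% in grh mutant.

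The cytosolic chaperonin, the ring that folds actin and tubulin, moved as a whole in grh mutant: all 8 subunit genes were lower than in wild type, with a median of -0.60, and all 8 were higher in grh overexpression than in grh mutant, with a median of 0.48. The largest falls in grh mutant were those of CCT2, 0.67 (adjusted p = 5.01e-08), and CCT3, 0.65 (adjusted p = 7.30e-08). None of the falls reached 2-fold, and over all rows 44.6% were called lower. The median absolute log2 fold change of all rows was 0.49 there, so the falls were of ordinary size. In grh overexpression against grh mutant 42.9% of all rows were called higher, and the median absolute log2 fold change of all rows was 0.69. These counts of 8 were the same under all 16 alternatives. In grh overexpression against wild type 2 subunits were higher and 4 lower, all within 0.21 log2 units, with a median of -0.07. Quantile normalization left 2 lower, and using no filter or leaving out grh overexpression replicate 1 or wild type replicate 2 left 1 higher.

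Of 9 Hsp90 co-chaperones, 2 were higher and 3 lower in grh overexpression (median 0.11), and 2 were higher and 4 lower in grh mutant, with a median of -0.02, both against wild type. Sgt1 averaged 7.97 in grh overexpression, 6.43 in grh mutant and 7.83 in wild type, and was 2.65-fold lower in grh mutant than in wild type (adjusted p = 1.23e-08). The gene nudC fell by 0.91 in grh mutant (adjusted p = 2.56e-07), and unc-45, whose product folds myosin, rose by 0.84 in grh overexpression (adjusted p = 8.22e-07). The immunophilin gene Fkbp59 was lower than in wild type in both, with a log2 fold change of -0.56 in grh overexpression and -0.76 in grh mutant. In grh overexpression against wild type, using no filter or leaving out grh overexpression replicate 1 or wild type replicate 2 left 1 higher. Among all rows 36% were called higher and 44.1% lower in grh overexpression, and 36.3% and 44.6% in grh mutant.

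Of 5 mitochondrial chaperone genes, all 5 were lower in grh overexpression than in wild type (median -0.42). In grh mutant 3 were lower than in wild type (median -0.14). Over all rows 44.1% were called lower in grh overexpression and 44.6% in grh mutant. Trap1, the mitochondrial Hsp90, fell by 0.97 in grh overexpression (adjusted p = 1.21e-08) and differed by 0.02 in grh mutant (adjusted p = 0.749). Hsp60A, the mitochondrial chaperonin, fell by 0.33 in grh overexpression and by 0.80 in grh mutant (adjusted p = 1.36e-05 and 7.02e-09). The small heat shock genes outside the 9 were lower in grh overexpression in 3 of 3 cases (median -0.83). In grh mutant CG7409 was 2.68-fold higher than in wild type (adjusted p = 3.82e-08), CG13133 was lower, reading 3.62 against 4.42 in wild type, and l(2)efl differed by 0.00 (adjusted p = 0.961).

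In the endoplasmic reticulum list, 5 of 9 genes were higher and 1 was lower in grh overexpression (median 0.18), and 2 were higher and 4 lower in grh mutant, with a median of -0.10, both against wild type. PEK, a kinase that senses unfolded protein in that compartment, rose by 0.86 in grh overexpression (adjusted p = 1.78e-07), as did Hrd3, which acts in the removal of misfolded proteins, by 0.63 (adjusted p = 1.10e-06). The 1 gene lower in grh overexpression was Atf6, a transcription factor of the unfolded protein response, with a log2 fold change of -0.41 in grh overexpression (adjusted p = 4.81e-05) and -0.57 in grh mutant (adjusted p = 2.66e-06). The gene crc, which encodes the fly ATF4, differed by 0.03 in grh overexpression (adjusted p = 0.641) and fell by 0.52 in grh mutant (adjusted p = 3.22e-06). Leaving out grh mutant replicate 2 or wild type replicate 2 left 1 gene higher in grh mutant. Across all rows 36% were called higher and 44.1% lower in grh overexpression, and 36.3% and 44.6% in grh mutant.

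**Figure D4:**
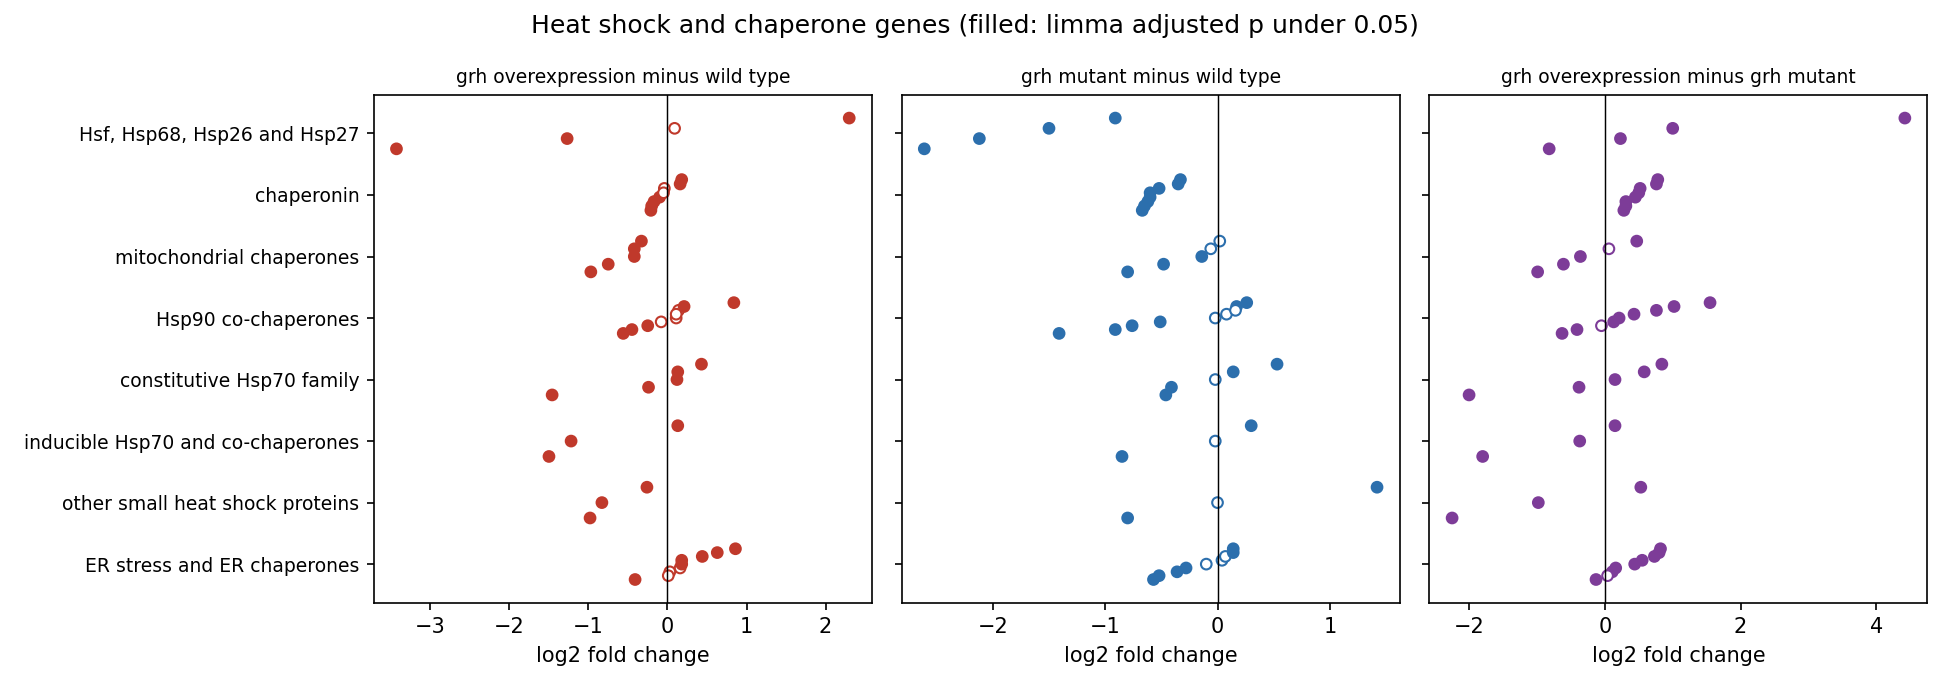
Log2 fold change (horizontal axis) of each tested gene of the heat shock and chaperone lists (rows) in the 3 comparisons (panels, each with its own axis range); filled points passed limma at an adjusted p under 0.05 and open points did not. The 4 heat shock genes spread from -3.43 to 2.30 in grh overexpression against wild type, while the chaperonin subunits lie close together, all below 0 in grh mutant.

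Tissue markers differed between the same arrays. Beside the counts below, 36% of all rows were called higher and 44.1% lower in grh overexpression, and 36.3% and 44.6% in grh mutant. The summed linear signal of the 7 muscle markers ran from 16311 to 16993 in grh overexpression, from 35135 to 35975 in grh mutant and from 25310 to 26097 in wild type, with 7 of 7 lower in grh overexpression and 7 of 7 higher in grh mutant than in wild type. That of the 9 neuronal markers ran from 1646 to 1671 in grh overexpression, from 3159 to 3161 in grh mutant and from 2109 to 2195 in wild type. Of 8 tested, 7 were lower and 1, futsch, was higher in grh overexpression. In grh mutant 6 were higher and 1, VGlut, was lower. The wild type average of futsch was 3.13, under 4. The muscle and neuronal sums were thus ordered against Hsp26, which was highest in grh overexpression and lowest in grh mutant. The glial sum was 2071 to 2191 in grh overexpression, 3892 to 4057 in grh mutant and 3470 to 3572 in wild type, with 5 of 6 lower in grh overexpression, and 2 higher and 3 lower in grh mutant. The glial markers higher in grh mutant were Gs2 and moody, and those lower were alrm, wrapper and nrv2. Their list median there was -0.17, although the sum rose. The hemocyte sum was 611 to 616 in grh overexpression, 1244 to 1329 in grh mutant and 1408 to 1476 in wild type, with 1 of 5 tested higher and 4 lower in grh overexpression, and 2 higher and 3 lower in grh mutant. Of these, eater was under 4 on all arrays. Epidermal and cuticle markers summed to 12549 to 12943 in grh overexpression, 10701 to 10769 in grh mutant and 13024 to 13193 in wild type. Of 6 markers, 3 were higher and 3 lower in grh overexpression, and 1 was higher and 4 lower in grh mutant. Every linear sum given here is weighted to its brightest markers. For the epidermal sum this is TwdlM, which averaged 13.08, 13.11 and 13.33 in the same order of genotypes. The 3 higher in grh overexpression, knk, Ddc and kkv, were also lower in grh mutant, the order of Hsp26. Rows with both calls were not counted over the whole array. For knk the averages were 8.77, 5.04 and 6.54. The 3 lower in grh overexpression were vvl, pot and TwdlM. Midgut markers summed to 675 to 699 in grh overexpression, 719 to 754 in grh mutant and 440 to 478 in wild type, with 2 of 4 higher and 1 lower in grh overexpression, and 4 higher in grh mutant. The markers betaTry (midgut), Hml (hemocytes) and brp (neurons) passed the filter on low values through the grh mutant arrays alone, so the filter fixed their higher calls in grh mutant. The 1 hemocyte marker called higher in grh overexpression was Hml, at 2.82 against 2.49 in wild type, both under 4. The part of these differences in the heat shock values was not tested, and in whole embryos fewer cells of a type and less RNA per cell cannot be told apart. Signal at the 3' control probe set minus that at the 5' one, which follows RNA quality, was 1.16 ± 0.09, 1.0 ± 0.04 and 0.98 ± 0.08 for Gapdh in grh overexpression, grh mutant and wild type (SD, n = 2 each), and 1.05 ± 0.08, 1.04 ± 0.14 and 1.08 ± 0.09 for eIF4A in the same order. It was 1.41 ± 0.11, 1.29 ± 0.03 and 1.44 ± 0.03 for actin, and 3.37 ± 0.04, 4.09 ± 0.24 and 3.95 ± 0.15 for 18S rRNA, again in that order. The 4 controls did not share one order of the genotypes.

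Among 7640 other named genes tested, those whose centred log2 values over the 6 arrays differed least from each heat shock gene were found by the root mean square difference. For Hsp26 these were CtsK2 (0.108 log2 units) and tej, a germline gene of the piRNA pathway (0.110), which averaged 7.24 in grh overexpression, 2.69 in grh mutant (under 4) and 5.01 in wild type. For Hsp27 they were CG4686 (0.055) and NimB1 (0.076), a gene of the Nimrod family. For Hsp68 they were CG4000 (0.167) and CG7650 (0.210). CG4000 averaged 3.28 in grh overexpression, 4.07 in grh mutant and 6.84 in wild type. CG7650 averaged 2.27, the floor of the deposited values, in grh overexpression, 3.43 in grh mutant and 5.65 in wild type. The distances of tej, CG4000 and CG7650 thus rest partly on values under 4. For Hsf they were Secp43 (0.033) and SrpRalpha (0.038), which encodes a subunit of the signal recognition particle receptor. With 3 genotypes many genes share a pattern, and this likeness carries no test.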

How the data were processed

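The authors deposited 1 log2 value per Affymetrix probe set and array; the submitters' processing notes name GCRMA and MAS5 without role, and no build is given. That the scale is log2 was read from the values (2.27 to 14.1). They were used without further normalization. Arrays have no read depth, and their number limits the precision. Of 18952 probe sets, 13647 had 1 symbol, 402 several, 4720 none and 183 were controls, left out. Symbols were updated to assembly Release 6. The brightest probe set stood for a gene, and the 8632 rows that reached 4 on 2 or more arrays were fitted with limma 3.58.1 in R 4.3.3 (3 group means, eBayes with trend, Benjamini-Hochberg over all rows, calls at an adjusted p under 0.05, two-sided). The script was tested on simulated data. Named genes were the 9 heat shock genes, list genes with the largest changes, cluster neighbours called at least 2-fold, and the 2 nearest patterns per gene. Some tissue markers and ecdysone pathway genes were also named, where a sum, a count or the filter rested on them. Members and lists (inducible and constitutive Hsp70, other small heat shock, Hsp90 co-chaperones, chaperonin, mitochondrial, endoplasmic reticulum, ecdysone, germ cell and maternal, and tissue markers) were chosen with earlier results of these data known. Alternatives covered filter, probe set rule, scaling, variance model, replicate block and each array left out.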

Additional observations from a re-analysis of the deposited data

How the results depend on the processing

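Under 16 alternatives no fold change of Hsf, Hsp68, Hsp26 or Hsp27 changed direction. Their ranges in grh overexpression against wild type were 2.25 to 2.36 for Hsp26, -1.32 to -1.22 for Hsp27, -3.57 to -3.30 for Hsp68 and 0.04 to 0.14 for Hsf, and in grh mutant against wild type -2.17 to -2.06, -1.53 to -1.47, -2.68 to -2.55 and -0.96 to -0.86 in the same order. Counts of the 4 genes differed by over 1.5 times from those reported in these cases only: leaving out 1 array gave 1 to 2 called higher in grh overexpression against wild type, the second being Hsf, and 1 to 2 higher at least 2-fold in grh overexpression against grh mutant, and centring each array on its median gave 1 for that count. There Hsf, at 1.0, lies on the 2-fold limit. Replicate numbers are shared by the labels, but with 2 numbers per genotype they do not establish pairs. Deviations of same-numbered arrays correlated at r = 0.136 to 0.245. The fit with the replicate block called 1 gene higher and 2 lower in grh overexpression and 4 of 4 lower in grh mutant, the same counts as without it, and 82.6% and 83.1% of all rows in those comparisons with wild type. With 2 arrays a group, spread is estimated from 3 residual degrees of freedom.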

Other observations

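Small heat shock genes are known to respond to ecdysone and to be active in the germ line, so both lists were read on the same arrays. Of 12 tested ecdysone pathway genes, 5 were higher and 5 lower in grh overexpression than in wild type (median 0.03), and in grh mutant 7 were above and 2 below wild type (median 0.36). The ecdysone-inducible gene ImpE2 averaged 12.64 in grh overexpression, 6.71 in grh mutant and 5.11 in wild type. Another such gene, ImpE3, averaged 6.78 in grh overexpression and 2.28 in both grh mutant and wild type; it passed the filter through grh overexpression alone, which fixed its higher call there. MsrA, listed under its older name Eip71CD, encodes a methionine sulfoxide reductase that repairs oxidised proteins. It averaged 11.83 in grh overexpression, 5.81 in grh mutant and 8.08 in wild type, in the order of Hsp26. No other tested ecdysone pathway gene was called both higher in grh overexpression and lower in grh mutant. A link between MsrA and Hsp26 was not tested. ImpE1 averaged 6.43 in grh overexpression, 5.89 in grh mutant and 3.78, under 4, in wild type. The 5 genes called lower in grh overexpression were EcR, br, ftz-f1, Eip78C and Hr39. Their log2 fold changes against wild type were -0.6, -0.55, -0.51, -0.2 and -0.16 in that order. In grh mutant Eip78C was 3.73-fold and br 2.14-fold higher than in wild type. The count of lower ecdysone genes in grh overexpression was 3 on leaving out either grh overexpression array. Over all rows 36% were called higher and 44.1% lower in grh overexpression, and 36.3% and 44.6% in grh mutant.

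Of 5 tested germ cell and maternal genes, 4 were higher and 1 was lower in grh overexpression than in wild type (36% and 44.1% of all rows). In grh mutant 2 were above and 2 below wild type (36.3% and 44.6% of all rows). Of the 4, spn-E and piwi passed the filter through grh overexpression alone, which fixed their direction, and with a minimum of 6 the count was 2. The maternal gene bcd averaged 8.35 in grh overexpression, 2.47 in grh mutant (under 4) and 6.25 in wild type, also in the order of Hsp26. No other tested gene of this list was called both higher in grh overexpression and lower in grh mutant. How many of all rows had both calls was not counted. A link between bcd and Hsp26 was not tested. The germline gene spn-E averaged 4.49 in grh overexpression, 3.91 in grh mutant and 3.03 in wild type. The gene stau, whose product localises maternal mRNA, averaged 6.88 in grh overexpression, 7.59 in grh mutant and 6.36 in wild type. The summed signal of 4 germ cell markers was 65 to 66 in grh overexpression, 42 to 43 in grh mutant and 34 to 35 in wild type, of which vas and aub were under 4 on all arrays; the 2 tested were spn-E and piwi.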
